A study of Mus musculus with 6 samples.

Results

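S100 proteins and annexins are calcium-signalling partners, and 10 of their genes were examined here in endothelial cells (ECs) enriched from ischemic mouse muscle: S100a6, S100a10, S100a11, S100a13, Anxa1, Anxa2, Anxa3, Anxa5, Anxa6 and Anxa7. They are 10 of the 47729 genes in the count files. The set was proposed because S100a11 had many reads in one group and almost none elsewhere, and the other 9 genes were added as family members and binding partners. The set was thus chosen by the read counts of S100a11 in the 3 groups, which are given as a description without a test.

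The 6 libraries, 2 per group, were made from the CD144-enriched fraction, which is the cells held by magnetic beads against VE-cadherin. All mice were fed a high-fat, high-sucrose (HFHS) diet and underwent femoral artery ligation for hind limb ischemia (HLI) on day 0. Virus injections into the muscle followed on days 1 and 4 by the labels, and the muscle was collected after 1 week, although the methods of the study place injection 2 later than day 4. Libraries were made with a 3′ gene expression kit without its droplet step.

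The groups were WT mice that received Ad-GFP, an adenovirus encoding green fluorescent protein (WT + GFP), Leene-KO mice that received the same Ad-GFP (KO + GFP), and Leene-KO mice that received Ad-LEENE, which encodes human LEENE (KO + LEENE). Per the study's methods, the KO is a germline CRISPR/Cas9 deletion in C57BL/6J mice of the region that matches the human LEENE locus, so it is carried by every cell type, and the LEENE vector also carries a GFP tag. Age and sex of these mice were not in the labels. A Leene transcript was not analysed here, so the genotype labels were not checked against the deleted gene. The headers give both libraries of each group 1 facility sample number, 3 numbers in all, and nothing says that the libraries came from separate mice. P values therefore compare these libraries and measure only the spread between them, which may be technical.

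Totals ran from 1770992 to 5602603 reads per library. The libraries of a group differed by slightly more than the sampling of reads, with median squared differences of 1.18 to 1.22 times counting noise over genes and chi-square P values of 4.08e-20 or lower in WT + GFP and KO + GFP and 7.91e-19 in KO + LEENE. Among members with at least 20 reads in both libraries of a group, the largest fold between the libraries was 1.37 in WT + GFP over 6 members, 1.28 in KO + GFP over 4 and 1.35 in KO + LEENE over 4. Levels are given as normalized CPM, the reads of a gene scaled to a common library total, with the totals adjusted by TMM factors, with n = 2 libraries per group throughout. A level of 3 reads in a library was taken as the floor, equal to 0.69 to 1.16 normalized CPM. Intervals and floors cover the counting error of reads only. Reads copied from 1 molecule were not told apart, so the intervals can be too narrow for counts of molecules. Cdh5, which encodes VE-cadherin, gave 332 and 283 reads for the WT + GFP libraries, 322 and 196 for the KO + GFP pair, and 5 and 18 for the KO + LEENE pair, so the marker used for the enrichment was low in the last group. Mitochondrially encoded genes took 50.1% and 50.9% of the reads in WT + GFP and 33.6% to 34.3% in the other 4 libraries, and leaving these genes out changed no call of a member.

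S100 proteins are small proteins with EF-hand calcium-binding motifs that usually work as dimers and bind target proteins when calcium rises. Annexins bind the negatively charged phospholipids of membranes in a calcium-dependent manner and take part in membrane traffic, membrane repair and anticoagulant surfaces. The families meet in defined complexes. S100A10 binds annexin A2 and places it at the endothelial surface, where it acts as a receptor for plasminogen and its activator, S100A11 binds annexin A1, and S100A6 can bind several annexins.

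The S100 members lie in a cluster on chromosome 3 of GRCm38. S100a13 (ENSMUSG00000042312) is at chr3:90514435-90524581, S100a6 (ENSMUSG00000001025) at chr3:90612882-90624181, S100a11 (ENSMUSG00000027907) at chr3:93520488-93526287 and S100a10 (ENSMUSG00000041959) at chr3:93555080-93564643, and all 4 are on the plus strand. S100a11 and S100a10 are separated by 28792 bases with 1 annotated gene between them, and S100a13 and S100a6 by 88300 bases with 9 genes between them, of which 6 are S100 genes. The annexin genes are spread over the genome. Anxa1 (ENSMUSG00000024659) is at chr19:20373428-20390944 on the minus strand, Anxa2 (ENSMUSG00000032231) at chr9:69453620-69491795 on the plus strand, and Anxa3 (ENSMUSG00000029484) at chr5:96793339-96845966 on the plus strand. Anxa5 (ENSMUSG00000027712) is at chr3:36448923-36475894, Anxa6 (ENSMUSG00000018340) at chr11:54979108-55033445 and Anxa7 (ENSMUSG00000021814) at chr14:20455261-20480133, and these 3 are on the minus strand. The counts cover the exons of each gene.

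Each of the 3 groups had at least 1 member that was abundant there and scarce in both others, S100a11 in WT + GFP, S100a13 in KO + GFP and Anxa2 in KO + LEENE. The 250 bases before the RefSeq start of these 3 genes are shown so that their promoters can be set side by side, from RefSeq on GRCm38.p6, all on the plus strand, 5′ to 3′. They are at chr3:93520246-93520495 for S100a11, chr3:90514185-90514434 for S100a13 and chr9:69453433-69453682 for Anxa2. The RefSeq starts of S100a11 and Anxa2 lie inside the Ensembl genes whose positions are given above, so the ends of those windows overlap the genes as counted. Capitals mark matches on either strand to the TATA box (TATAAA), the GC box (GGGCGG), the CCAAT box (CCAAT) or the AP-1 site (TGANTCA).
S100a11: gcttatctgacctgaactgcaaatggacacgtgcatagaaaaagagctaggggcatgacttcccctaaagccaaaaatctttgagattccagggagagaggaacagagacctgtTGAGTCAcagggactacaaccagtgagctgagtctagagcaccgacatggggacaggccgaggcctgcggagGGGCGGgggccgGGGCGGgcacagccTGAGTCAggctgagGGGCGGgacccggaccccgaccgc
S100a13: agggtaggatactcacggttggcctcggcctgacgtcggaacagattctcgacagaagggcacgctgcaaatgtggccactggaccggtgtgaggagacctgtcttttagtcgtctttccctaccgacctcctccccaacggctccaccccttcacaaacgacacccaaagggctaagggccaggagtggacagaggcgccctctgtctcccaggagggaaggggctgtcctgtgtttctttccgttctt
Anxa2: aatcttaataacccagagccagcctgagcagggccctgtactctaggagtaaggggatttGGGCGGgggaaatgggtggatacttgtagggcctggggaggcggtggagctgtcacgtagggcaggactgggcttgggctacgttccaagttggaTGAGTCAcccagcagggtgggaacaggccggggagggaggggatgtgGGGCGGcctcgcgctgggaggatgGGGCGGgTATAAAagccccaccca

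The S100a11 promoter held 3 GC boxes and 2 AP-1 sites, the Anxa2 promoter held 1 TATA box, 3 GC boxes and 1 AP-1 site, and the S100a13 promoter held none of the 4 motifs. Their GC contents were 60%, 62.4% and 58.8%. Among 32851 RefSeq promoter windows of the same length, 12.4% held a TATA box, 32.7% a GC box, 33.8% a CCAAT box and 6.75% an AP-1 site. Of the 10 members, 7 were in the promoter table and S100a10, Anxa3 and Anxa6 were not. Of the others, S100a6 had 1 CCAAT box, Anxa1 had 1 TATA box, Anxa5 had no match, and Anxa7, listed with 2 starts, had 1 and 4 GC boxes. S100a11 and Anxa2 thus shared GC boxes and AP-1 matches although they were abundant in different groups. A match is a string of letters and was not tested for binding.

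S100a11 encodes the S100 protein that pairs with annexin A1. It gave 4833 and 4209 reads for the WT + GFP libraries, 0 and 0 for the KO + GFP pair, and 2 and 0 for the KO + LEENE pair. The mean level was 1090 ± 30.6 normalized CPM (SD, n = 2) in WT + GFP. That was at least 1106-fold higher than in KO + GFP, where the floor of 3 reads per library was used, and 2959-fold higher than in KO + LEENE (95% counting interval 819 to 24439). Both KO + LEENE reads came from the first library of that group, so the ratio was at least 992-fold without it and 1469-fold (407 to 12135) without the second. WT + GFP held 99.97% of the sum of the group means. Per kilobase of exon, S100a11 was the highest of the 10 members in WT + GFP, at 2133 normalized CPM per kb, against 554 for S100a6, the next. The 3′ kit reads mostly the end of a transcript, so levels per kilobase understate long genes. A copy listed as S100a11-ps (chr12:73961142-73961447) gave 3 and 0 reads for WT + GFP, 9 and 5 for the KO + GFP pair, and 1 and 0 for the KO + LEENE pair, so few reads were counted at this copy in any group.

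A pattern of this kind was not particular to S100a11. Of 787 genes with at least 100 normalized CPM in WT + GFP, 48 (6.1%) had no more than 3 reads in each of the other 4 libraries, and S100a11 was the 1 member among them. The same count was 51 of 906 genes (5.63%) for KO + GFP and 43 of 723 (5.95%) for KO + LEENE, with no member in either. This count was chosen after the values had been seen. The 5 genes outside the set closest to S100a11, by Euclidean distance of log2 CPM (prior count 2) over the 6 libraries, were mt-Tp (distance 1.23), a mitochondrial transfer RNA gene, Sec61b (1.56), a subunit of the protein translocation channel, Rnaseh2c (1.88), a subunit of an RNA-DNA hybrid nuclease, Crkl (1.9), a signalling adaptor, and Parva (2.03), a focal adhesion protein. With a prior count of 0.5 or of 10, 3 of these 5 remained among the first 5.

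The other S100 members did not share the pattern of S100a11. S100a6 encodes calcyclin, a dimer that is abundant in dividing and stromal cells. It gave 3315 and 2969 reads for the WT + GFP libraries, 15961 and 10286 for the KO + GFP pair, and 742 and 705 for the KO + LEENE pair. Mean levels were 758 ± 6.3, 4146 ± 239 and 267 ± 12.3 normalized CPM (SD, n = 2). No library of one group overlapped another group, and the order was KO + GFP, WT + GFP, KO + LEENE. S100a6 was the only S100 member far above the floor in all 3 groups.

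S100a10 encodes the annexin A2 partner, an S100 protein that has lost the ability to bind calcium. It gave 7 and 11 reads for the WT + GFP libraries, 129 and 83 for the KO + GFP pair, and 8 and 8 for the KO + LEENE pair. The means were 2.2 ± 0.84, 33.5 ± 1.97 and 2.95 ± 0.029 normalized CPM (SD, n = 2). KO + GFP stood apart, and WT + GFP and KO + LEENE could not be ordered, since the edgeR log2 difference of KO + LEENE from WT + GFP was 0.44 ± 0.54 (SE), turning to -0.28 when all libraries were thinned to the smallest total.

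S100a13 encodes a protein linked to the release of growth factors and cytokines that lack a signal peptide, such as FGF1 and IL-1α. It gave 10 and 14 reads for the WT + GFP libraries, 3764 and 2395 for the KO + GFP pair, and 2 and 1 for the KO + LEENE pair. The mean level was 972 ± 64.8 normalized CPM (SD, n = 2) in KO + GFP, or 1359 per kb, and 2.93 ± 0.89 in WT + GFP. KO + GFP held 99.6% of the sum of the group means of S100a13, and neither library of the other groups came near it. S100a13 and S100a6 were both highest in KO + GFP, while S100a11, between S100a6 and S100a10 on the chromosome, had no read there.

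**Figure D1:**
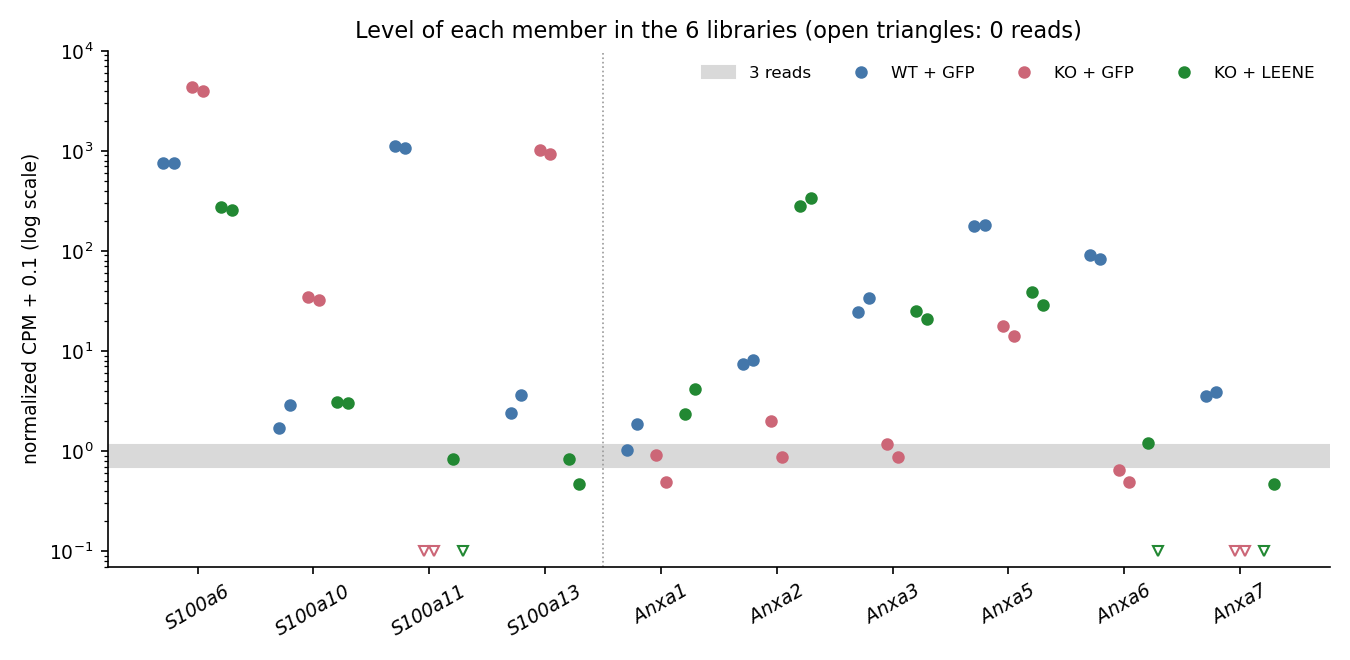
Normalized CPM plus 0.1 on a log axis for the 10 members in each of the 6 libraries, with the left point of each pair for replicate 1. The gray band spans 3 reads per library (0.69 to 1.16 CPM) and open triangles mark 0 reads; S100a11 sits near 1090 in WT + GFP with 3 of the other 4 libraries at 0, S100a13 near 972 in KO + GFP, and Anxa2 near 308 in KO + LEENE.

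Of the annexin partners of these S100 proteins, Anxa1 was too low to show whether it followed S100a11, and Anxa2 was highest in another group than S100a10. Anxa1 encodes annexin A1, the S100A11 partner and an anti-inflammatory ligand of formyl peptide receptors. It gave 4 and 7 reads for the WT + GFP libraries, 3 and 1 for the KO + GFP pair, and 6 and 11 for the KO + LEENE pair. The means were 1.35 ± 0.61, 0.6 ± 0.3 and 3.13 ± 1.27 normalized CPM (SD, n = 2). Anxa1 was near the floor in every group, including WT + GFP, where S100a11 had 4209 reads or more in each library, so its level gave little room to compare the groups.

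Anxa2 encodes annexin A2, the S100A10 partner. It gave 32 and 32 reads for the WT + GFP libraries, 7 and 2 for the KO + GFP pair, and 756 and 914 for the KO + LEENE pair. The means were 7.74 ± 0.54, 1.33 ± 0.79 and 308 ± 38.2 normalized CPM (SD, n = 2). The 3 groups did not overlap, and KO + LEENE held 97.1% of the sum of the group means. S100a10 was highest in KO + GFP, where Anxa2 was lowest, and Anxa2 was highest in KO + LEENE, where S100a10 had 8 reads in each library. The pair of genes thus had their highest levels in different groups. An annotated antisense transcript, Gm16144, shares 98 of the 3731 exon bases of Anxa2 and had at most 1 read, and how many Anxa2 reads fell in the shared bases was not measured.

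The other 4 annexin members had their highest mean in WT + GFP, except that Anxa3 was higher in KO + LEENE when library totals alone were used for scaling. Anxa5 encodes annexin A5, an anticoagulant protein that coats exposed phosphatidylserine. It gave 765 and 709 reads for the WT + GFP libraries, 66 and 36 for the KO + GFP pair, and 105 and 79 for the KO + LEENE pair. The means were 178 ± 2.83, 15.9 ± 2.77 and 34 ± 7.11 normalized CPM (SD, n = 2). Anxa5 was the only annexin above the floor in both libraries of every group, and its groups did not overlap.

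Anxa6 encodes annexin A6, a large annexin with a duplicated core that acts in membrane repair and cholesterol traffic. It gave 391 and 325 reads for the WT + GFP libraries, 2 and 1 for the KO + GFP pair, and 3 and 0 for the KO + LEENE pair. Its mean was 86.2 ± 5.26 normalized CPM (SD, n = 2) in WT + GFP, 181-fold above KO + GFP (95% counting interval 61.7 to 880) and 156-fold above KO + LEENE (53.2 to 759). The second ratio was at least 78.5-fold without the first KO + LEENE library and 77.6-fold (26.4 to 377) without the second. Of the 9 partners, Anxa6 was closest to S100a11 over the 6 libraries, at a distance of 5.31, which ranked 128 of 8903 genes tested. Anxa6 was thus near absent in the same groups as S100a11, at a lower level in WT + GFP.

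Anxa3 encodes annexin A3, an annexin linked to angiogenesis and found in myeloid cells. It gave 106 and 132 reads for the WT + GFP libraries, 4 and 2 for the KO + GFP pair, and 67 and 57 for the KO + LEENE pair. The means were 28.9 ± 6.45, 0.93 ± 0.22 and 22.9 ± 2.83 normalized CPM (SD, n = 2). WT + GFP and KO + LEENE lay side by side and KO + GFP was close to the floor. The edgeR log2 difference of KO + LEENE from WT + GFP was -0.33 ± 0.19 (SE) and not past the threshold, so these neighbors in the order did not differ beyond their spread, and it turned to 0.34 when library totals alone were used, a scaling that moves all genes alike. Gm42603, on the same strand, shares 112 of the 3643 exon bases of Anxa3 and had at most 2 reads.

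Anxa7 encodes annexin A7, or synexin, which was first described in the fusion of secretory granules. It gave 15 and 15 reads for the WT + GFP libraries, 0 and 0 for the KO + GFP pair, and 0 and 1 for the KO + LEENE pair. The mean was 3.63 ± 0.25 normalized CPM (SD, n = 2) in WT + GFP, at least 3.68-fold above KO + GFP at the floor and 19.6-fold above KO + LEENE (95% counting interval 3.26 to 801). That ratio rested on 1 read and was 9.89-fold (1.64 to 403) without the first KO + LEENE library and at least 3.26-fold without the second. The direction was that of S100a11 and Anxa6, at a level where depth limits what can be seen.

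Distances to S100a11 were also computed for the other partners. After Anxa6 came Anxa3 (10.2, rank 1178), Anxa5 (10.7, rank 1532) and Anxa7 (11.4, rank 2128), then Anxa1 (13.4, rank 4408), S100a10 (15, rank 6138), Anxa2 (15.7, rank 6930), S100a13 (19.1, rank 8639) and S100a6 (21.5, rank 8821 of 8903). The distance uses the level as well as the pattern, so a gene near the floor in every library, such as Anxa1, gets a middle rank whatever its pattern. The S100a11 values that enter it chose the set, and the ranks are a description.

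**Figure D2:**
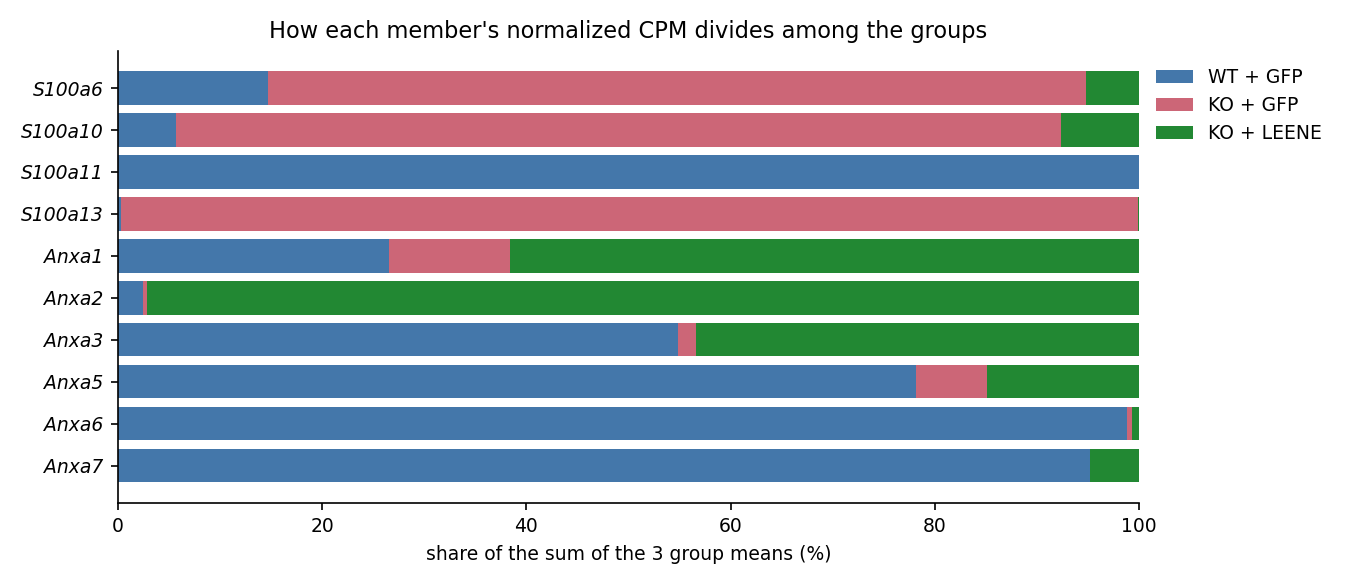
Share of the sum of the 3 group means of normalized CPM that falls in each group, in percent, 1 bar per member (n = 2 libraries per group mean). S100a11, Anxa6 and Anxa7 lie almost wholly in WT + GFP (99.97%, 98.8% and 95.2%), S100a13 in KO + GFP (99.6%) and Anxa2 in KO + LEENE (97.1%).

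Concentration in 1 group was common among all genes tested. Of 8903 genes, 2817 (31.6%) had at least 90% of the sum of their group means in 1 group. S100a13, Anxa2, Anxa6 and Anxa7 were among them, as was S100a11, which was chosen for this pattern. All 10 members passed the filter on low counts, but some, such as Anxa7, passed through the 1 group in which they were high, so nothing is read from how many members were concentrated.

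The first comparison, KO + GFP against WT + GFP, asks what differs between the genotypes under the same vector. By the edgeR fit over all genes, 8 of the 9 partners were past the adjusted threshold of 0.05, 3 higher in KO + GFP and 5 lower, where 70.1% of all 8903 genes tested were past it, 34.2% higher and 35.9% lower. S100a11 was chosen in this contrast, so the values are a description. The 3 higher members were the S100 genes. On the log2 scale, S100a13 differed by 8.37 ± 0.15 (SE), S100a10 by 3.93 ± 0.29 and S100a6 by 2.45 ± 0.11.

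The 5 lower members were all annexins. Anxa3 was lower by -4.86 ± 0.37 on the log2 scale (SE), Anxa5 by -3.46 ± 0.13 and Anxa2 by -2.4 ± 0.43, and Anxa6 and Anxa7 were lower by the ratios given above. The Anxa2 difference moved to -3.26 without the first KO + GFP library. Anxa1 was 2.09-fold higher in WT + GFP (95% counting interval 0.618 to 8.98), an interval that includes equal levels, as did that of 3.43 (0.499 to 148) without the first KO + GFP library. Thinning all libraries to the smallest total moved S100a10 to 2.92, S100a13 to 7.52, Anxa3 to -3.8 and Anxa2 to -3.33, each in the same direction. The 3 members past the threshold and higher in KO + GFP were thus S100 genes and the 5 lower ones annexins, S100a11 itself was lower, and a difference between the families was not tested.

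The second comparison, KO + LEENE against KO + GFP, asks what changed when human LEENE was given to KO mice. Of the 9 partners, 7 passed the edgeR test, 4 higher and 3 lower in KO + LEENE, where 67.8% of all genes tested passed, 32.8% higher and 34.9% lower, so the share of members was near the background. The members that passed were 3 of 4 S100 genes, which fell, and 4 of 6 annexin genes, which rose. The Anxa1 call was lost under some alternatives, and the Anxa1 and S100a13 calls were fixed in part by the filter, as given below. This comparison shares its KO + GFP libraries with the first, so opposite directions in them are not independent results. A difference between the families was not tested. S100a11, Anxa6 and Anxa7 were at or under the floor in both groups, so no fold is given for them.

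S100a13 had the largest fall of the members, from 972 to 0.55 normalized CPM, 1772-fold (95% counting interval 606 to 8595) or 2676-fold (480 to 105727) without the first KO + LEENE library. S100a13 passed the filter on low counts through KO + GFP alone, the group where it was high, so its call in this comparison was fixed in part and no P value is given. S100a6 fell by 3.95 ± 0.12 on the log2 scale (SE, edgeR adjusted P = 1.56e-167). S100a10 fell by 3.49 ± 0.31 (edgeR adjusted P = 5.62e-28). Every KO + LEENE library was below every KO + GFP library for these 3 genes, and S100a10 in KO + LEENE ended at 2.95 normalized CPM beside 2.2 in WT + GFP, while S100a6 ended below its WT + GFP level.

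Anxa2 rose by 7.72 ± 0.19 on the log2 scale (SE, edgeR adjusted P = 2.47e-220), and by 8.57 without the first KO + GFP library. Anxa3 rose by 4.53 ± 0.42 (edgeR adjusted P = 8.05e-26) and Anxa5 by 1.07 ± 0.19 (edgeR adjusted P = 4.04e-08). Both KO + LEENE libraries were above both KO + GFP libraries for the 3 genes, and thinning moved Anxa2 to 8.79 and Anxa3 to 3.55. Scaling by library totals alone moved every value in this comparison upward, the median of all genes from -0.01 to 1.07 on the log2 scale, and with it Anxa5 to 2.23, Anxa3 to 5.67, Anxa2 to 8.86, S100a6 to -2.8 and S100a10 to -2.34. That scaling shifts every gene by about the same amount, and none of these members changed direction.

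Anxa1 was 4.92-fold higher in KO + LEENE (95% counting interval 1.61 to 20.1), higher in both libraries. Anxa1 passed the filter on low counts through KO + LEENE alone, the group where it was high. Its call in this comparison was therefore fixed in part and no P value is given. That call rested on 6 and 11 reads against 3 and 1, Anxa1 did not pass the filter on low counts when only the 4 libraries compared were kept, and the ratio was 8.11 (1.27 to 339) without the first KO + GFP library. The call was lost with DESeq2 and with edgeR after thinning. The ratio was 3.86 (1.12 to 20.6) without the second KO + GFP library. Without the second KO + LEENE library it was 3.5 (0.83 to 16.9), an interval that includes equal levels. The rise of Anxa1 was therefore the weakest of the annexin calls.

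**Figure D3:**
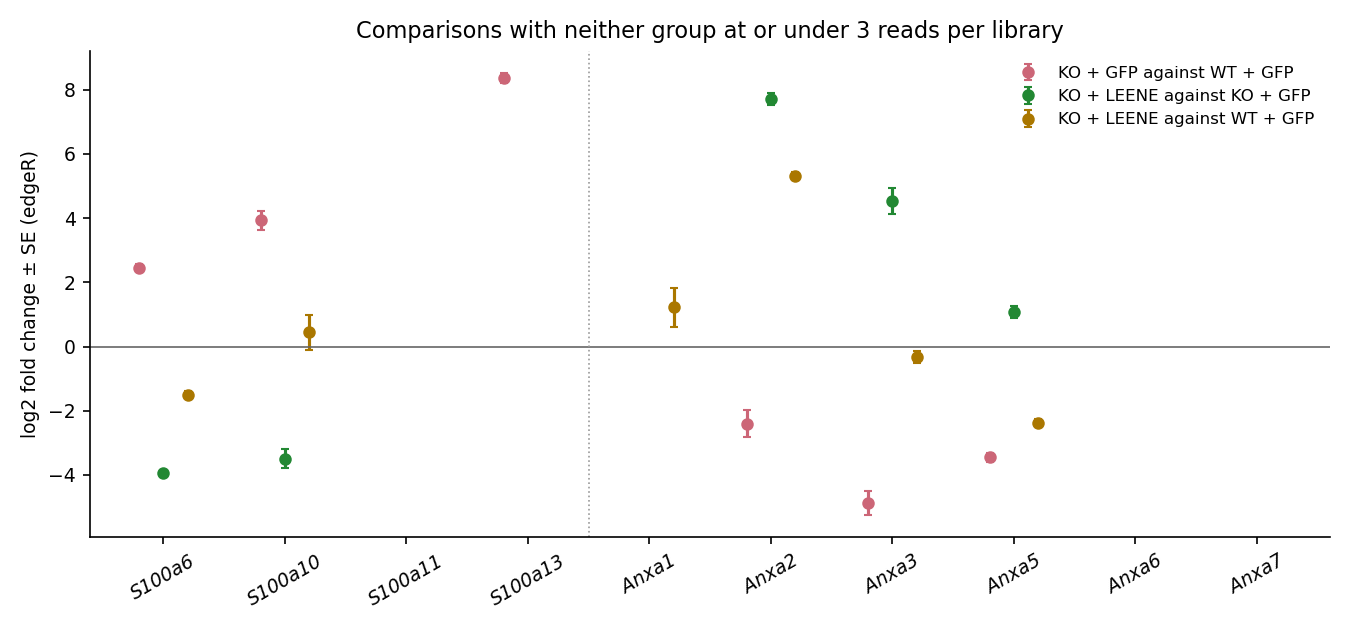
Log2 fold changes with SE bars from edgeR (n = 2 libraries per group) for the 3 comparisons, for members with neither group at or under 3 reads in every library. Going from KO + GFP to KO + LEENE, S100a6 and S100a10 lie below 0 and Anxa2, Anxa3 and Anxa5 above it; gene and comparison pairs with a group at the floor are left blank, and among the values set against WT + GFP for KO + LEENE, the 0.44 of S100a10 changes sign under thinning and the -0.33 of Anxa3 under scaling by library totals.

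The third comparison, KO + LEENE against WT + GFP, asks how far supplemented KO mice were from WT mice, and it shares its groups with the other 2. By edgeR, 6 of the 9 partners were past the threshold, 1 higher and 5 lower in KO + LEENE, where 70.7% of all genes tested were past it, 33.9% higher and 36.9% lower. These values are again a description. Anxa2 was the 1 higher member, by 5.31 ± 0.13 on the log2 scale (SE), from 7.74 to 308 normalized CPM. Anxa5 was lower by -2.39 ± 0.12 and S100a6 by -1.5 ± 0.11, S100a13 was 5.24-fold lower (95% counting interval 1.59 to 27.2) or 7.91-fold (1.29 to 325) without the first KO + LEENE library and 3.9-fold (0.968 to 34) without the second, an interval that includes equal levels, and Anxa6 and Anxa7 were near absent. Scaling by library totals alone moved Anxa2 to 5.98, Anxa5 to -1.72, S100a6 to -0.83 and the fitted S100a13 difference from -2.31 to -1.68, each in the same direction. S100a10, Anxa3 and Anxa1 were not past the threshold, the last with a log2 difference of 1.22 ± 0.6. Anxa1 passed it when library totals alone were used for scaling and without the second WT + GFP library, and Anxa3 did so without the first WT + GFP library.

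Summed over each family, the S100 members gave 1878 and 1828 normalized CPM in the WT + GFP libraries, 5367 and 4935 in those of KO + GFP, and 280 and 261 in those of KO + LEENE. The annexin members gave 302 and 310, 22.2 and 16.2, and 348 and 389. KO + GFP had the highest S100 sum and the lowest annexin sum. The sums hide exchanges within a family, because Anxa5 and Anxa6 made up most of the annexin sum in WT + GFP and Anxa2 most of it in KO + LEENE. S100a11, whose values chose the set, made up most of the S100 sum in WT + GFP, and S100a6 most of it in both KO groups.

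Relatives outside the set were mostly scarce. Of 12 other S100 genes, 7 were at or under 3 reads in every library, 2 of them with no read, and only S100b, known from glia, could be tested. S100b gave 13 and 14 reads for the WT + GFP libraries, 3 and 3 for the KO + GFP pair, and 0 and 7 for the KO + LEENE pair. Its mean was lower in both KO groups than in WT + GFP, but 1 KO + LEENE library had 0 reads and the other, at 2.56 normalized CPM, lay near the WT + GFP libraries (2.99 and 3.55). S100b passed the filter on low counts through WT + GFP, the group where it was highest. Its calls against WT + GFP were therefore fixed in part, and the values are a description without a P value. S100a8 and S100a9, the neutrophil S100 genes, were among those not tested, and S100a4 had at most 1 read. Of 6 other annexins, 2 could be tested. Anxa4 gave 272 and 226 reads for the WT + GFP libraries, 2 and 0 for the KO + GFP pair, and 1 and 1 for the KO + LEENE pair, 189-fold higher in WT + GFP than in KO + GFP (95% counting interval 52 to 1564). Anxa8, named after its values were seen, had 120 and 111, 1 and 2, and 0 and 0 reads. Anxa4 and Anxa8 thus had the pattern of Anxa6.

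Genes known to bind S100 proteins or annexins were tested for 8 of 10 genes, and from KO + GFP to KO + LEENE 1 rose and 5 fell, where 32.8% of all genes tested were called higher and 34.9% lower. The counts of the other related lists below stand against the same background, and nothing particular to a list is read from them. Ahnak encodes a giant scaffold that binds the complex of S100A10 and annexin A2. It gave 133 and 150 reads for the WT + GFP libraries, 22599 and 14945 for the KO + GFP pair, and 296 and 274 for the KO + LEENE pair, and fell by 5.82 ± 0.13 on the log2 scale with LEENE (SE, edgeR adjusted P = 5.57e-250). Rack1, a ribosome-bound scaffold, fell by 3.69 ± 0.12 (edgeR adjusted P = 2.55e-150). Ahnak and Rack1 were highest in KO + GFP, as S100a10 was and Anxa2 was not. Il1a, the cytokine whose release involves S100A13, had 283 and 235 reads in WT + GFP and at most 2 in any KO library, so it was scarce where S100a13 was abundant.

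Plasminogen activation is the surface function of annexin A2 and S100A10. Of 7 genes, 4 were tested, and with LEENE 3 rose and 1 fell. Plau, the urokinase gene, gave 496 and 437 reads for the WT + GFP libraries, 103 and 45 for the KO + GFP pair, and 543 and 526 for the KO + LEENE pair, and rose by 3.07 ± 0.12 on the log2 scale (SE, edgeR adjusted P = 8.53e-112). Plau was lowest in KO + GFP, as Anxa2 was.

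Membrane repair genes, where annexins and S100 proteins act with calpain, were tested for 6 of 9 genes, with 2 rising and 3 falling with LEENE. Capns1, the small calpain subunit, gave 8 and 6 reads for the WT + GFP libraries, 8298 and 5219 for the KO + GFP pair, and 2 and 3 for the KO + LEENE pair. Chmp4b, a membrane-severing subunit, had 3 and 3, 882 and 551, and 1 and 2 reads. Capn2, the large subunit that pairs with Capns1, rose with LEENE by 2.04 ± 0.095 on the log2 scale (SE, edgeR adjusted P = 3.07e-85), and Pdcd6ip, the adaptor ALIX, rose by 2.75 ± 0.11 (edgeR adjusted P = 4.52e-110). Capns1 and Chmp4b thus had the pattern of S100a13, and Capn2 was highest in KO + LEENE, as Anxa2 was. Of 7 receptor genes for extracellular S100 proteins and annexin A1, 5 were at or under the floor everywhere, 2 were tested, and 1 fell with LEENE.

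Markers of other cell types moved with some of these groups. The 8 fibroblast markers summed to 24147 and 22217 normalized CPM in KO + GFP, against 64.6 and 72.3 in the WT + GFP libraries and 53.8 and 54.2 in those of KO + LEENE, with 6 of 8 above the floor in KO + GFP and 5 in each other group. Dcn, Col3a1 and Col1a2 carried the KO + GFP sum, with means of 16497, 4917 and 1717, while Pdgfra was at 34.1 there and 37.6 in WT + GFP. Lum and S100a4, which mark fibroblasts, had at most 1 read in any library. The 12 macrophage and monocyte markers summed to 1278 and 1132 in KO + GFP, 31.7 and 43.1 in the WT + GFP libraries, and 14.1 and 9.52 in those of KO + LEENE, with 4, 4 and 2 of them above the floor. Mrc1, Adgre1 and Lyz2 carried that sum, with means of 492, 451 and 222, while C1qb was lower in KO + GFP, at 1.1 against 8.38 in WT + GFP. Cd68 had at most 1 read and Itgam at most 2. Both sums were highest in the group where S100a6, S100a10 and S100a13 were highest, and their part in those levels was not tested. In bulk samples, fewer cells of a type and less RNA per cell cannot be told apart.

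The 12 endothelial markers summed to 460 and 435 normalized CPM in the WT + GFP libraries, 3657 and 3651 in those of KO + GFP, and 192 and 206 in those of KO + LEENE, with 9 of 12 above the floor in each group. Emcn alone had 12245 and 8648 reads in KO + GFP and at most 14 elsewhere, so this sum rests on 1 gene there. The markers did not move together, since Kdr and Flt1 were highest in WT + GFP (183 and 115 normalized CPM), Vwf was highest in KO + LEENE (121), and Pecam1 lay between 36.1 and 46.5 in all 3 groups. The 8 mural cell markers summed to 4.6 and 4.57, 7.3 and 5.03, and 25.2 and 33.3 in the same order of groups, highest where Anxa2 was highest, and their part in the Anxa2 level was not tested. Rgs5 carried the KO + LEENE sum, with a mean of 22.1, and Myh11 was at 4.05. The other mural markers were at or under the floor there, with Acta2 at 0.92 against 0.94 in WT + GFP. The 7 neutrophil markers, which include S100a8 and S100a9, summed to at most 4.6 and Ly6g had no read. Muscle fiber markers (8 genes) summed to 7.36 and 3.81, 29.7 and 26.7, and 21.2 and 18.3 in the same order of groups. Myh4 carried that sum in KO + GFP (mean 26.4) and Acta1 in KO + LEENE (17.7), while Myh1 was highest in WT + GFP (3.9). Satellite cell markers (5) summed to 1.84 and 1.78, 7.57 and 7.73, and 5.2 and 6.22. Both sums were lowest in WT + GFP, and their part in the member levels was not tested. Lymphocyte markers (8) summed to between 16.2 and 23.2 over the 6 libraries.

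**Figure D4:**
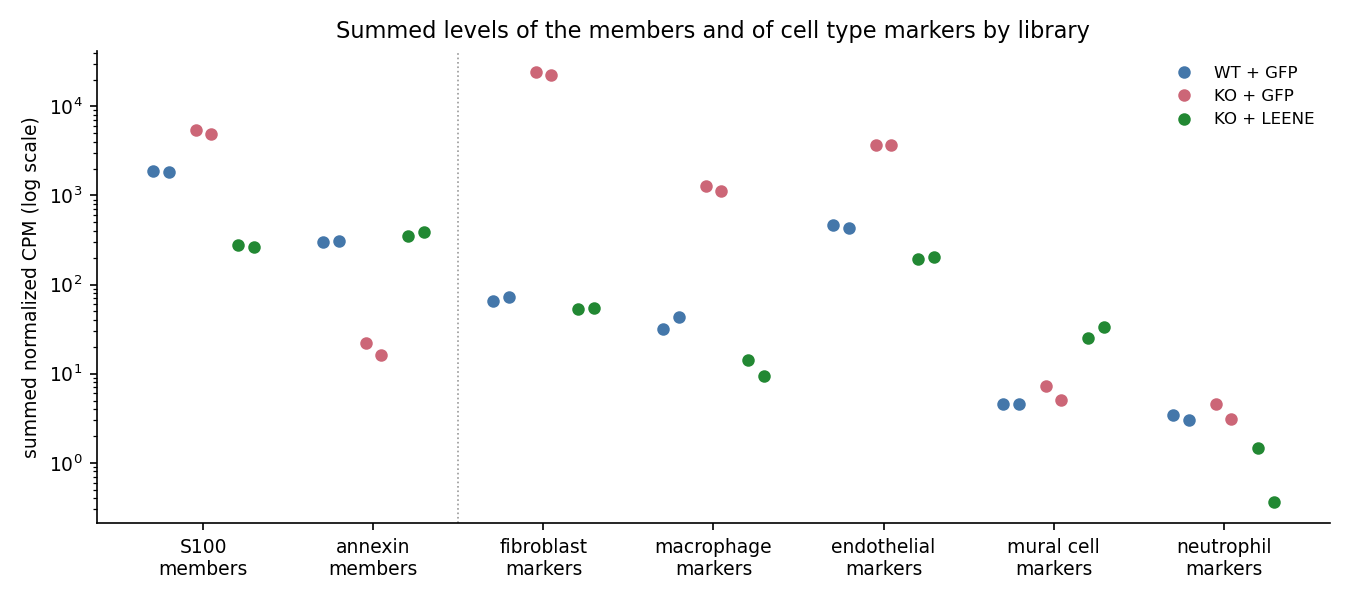
Summed normalized CPM on a log axis for the S100 members, the annexin members and 5 marker lists in each of the 6 libraries, with the left point of each pair for replicate 1. KO + GFP has the highest S100 sum (5367 and 4935) and the lowest annexin sum (22.2 and 16.2), with the highest fibroblast sum (24147 and 22217) and the highest macrophage sum (1278 and 1132).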

How the data were processed

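RNA-seq was done on 6 libraries of CD144-enriched cells, grouped by their titles. Per the file headers, the authors deposited raw read counts per gene, made with featureCounts 2.0.0 over exons of Ensembl release 84 on GRCm38, without strand, from uniquely aligned reads. The submitters' processing notes name STAR 2.5.4b and bcl2fastq 2.18, and the study's methods name another build and TPM values. No collapsing of molecular identifiers is named. Names came from a later GENCODE release by Ensembl identifier (43465 of 47729 genes matched), and coordinates are those of the files.

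Differential expression was tested with edgeR 4.0.16 (quasi-likelihood, R 4.3.3) in 1 fit of all 6 libraries with a mean per group, TMM scaling and filterByExpr (minimum count 10, minimum total 15), which kept 8903 genes. P values were adjusted by Benjamini-Hochberg over those genes and called at 0.05. SEs are the log2 fold change divided by the square root of F. Groups with 0 reads give bounds at 3 reads per library, and groups with at most 3 reads per library give ratios with exact 95% binomial intervals. An exact permutation test of 2 against 2 cannot go below 0.333. The scripts were tested on simulated counts. Alternatives covered DESeq2 1.42.0, other scalings and filters, thinning, a replicate block and leaving out each library.

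The members, the gene lists and the marker lists were chosen with earlier results of these data known. All members are named, and genes of the 6 related lists are named when tested and at a mean of at least 50 CPM in a group, at most 4 per list, except 1 gene that is not reported here.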

Additional observations from a re-analysis of the deposited data

How the results depend on the processing

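Of 352 recomputed values of the 9 members other than S100a11, 343 kept their direction and their side of the threshold, 4 lost the threshold, 3 gained it and 2 changed direction. With at least 10 reads required in every library, 2083 genes remained and 1536, 1505 and 1552 were called in the KO + GFP against WT + GFP, KO + LEENE against KO + GFP and KO + LEENE against WT + GFP comparisons. Of the members, S100a6 and Anxa5 remained, and 2, 2 and 2 were called, because the others had too few reads in some group. DESeq2 called 5506, 5369 and 5519 genes. The reversals were S100a10 at -0.28 after thinning (edgeR adjusted P = 0.717) and Anxa3 at 0.34 with library totals alone (edgeR adjusted P = 0.0938), both in KO + LEENE against WT + GFP, and neither value passed the threshold; the cause was not tested. With library totals alone, the log2 fold change of the median gene went from -0.09 to -0.57, -0.01 to 1.07 and -0.11 to 0.5 in the same order. Leaving out each library in turn gave 5588 to 6216, 5463 to 5997 and 5784 to 6224 genes called, and 8 to 8, 6 to 7 and 6 to 7 of these 9 members. A group left with 1 library was assumed to vary like the others.

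Replicate numbers share only a number, with correlations of same-numbered deviations of 0.05, 0.01 and 0.02. With them as a replicate block, 6072, 5841 and 6147 genes and 8, 7 and 6 of the 9 members were called, and the block changed none of their calls. Depth limits Anxa1 and Anxa7 most, with no more than 15 reads in any library.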
